A study of Homo sapiens with 4 samples.

Results

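FOXK2 binding at genes of the MYC and MAX network was examined in OVCAR5 cells, an established human ovarian cancer line that GEO's labels call high grade serous. The network genes were MYC, MYCL, MYCN, MAX, MXI1, MXD1, MXD3, MXD4, MNT and MLX, 10 genes in all, and their peaks were the rows of the peak lists that carry these gene names. The labels give no treatment or genetic change, and the group is a single cell line. Chromatin was precipitated with an antibody against FOXK2, a forkhead transcription factor, in 2 biological replicates, and peaks were called in each replicate separately. The replicate 1 list held 12471 peaks, 9 of them assigned to these genes, and the replicate 2 list held 27281 peaks, 16 of them assigned to these genes. The matching input libraries, 1 for each replicate, were not analysed here. There was a single condition, so no difference between conditions could be tested, and each value below describes 1 or both replicates.

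MYC, MYCN and MYCL encode transcription factors that bind DNA as a dimer with MAX, mostly at the E-box CACGTG, and drive cell growth, ribosome production and metabolism. MXD1, MXI1, MXD3, MXD4 and MNT encode proteins that also pair with MAX but recruit SIN3 corepressors, so they act against MYC at the same kind of site. MLX is a MAX-like protein that pairs with the glucose-responsive factors MLXIP and MLXIPL, and also with MNT and some MXD proteins. Forkhead factors such as FOXK2 prefer the heptamer TGTTTAC.

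The DNA under the peaks that were found in both replicates is shown first, since those peaks carry the results. The heptamer TGTTTAC, in capitals below, lay among others in the overlapping peaks of MXI1, at chr10:110225983-110226011 on the minus strand, and of MXD4, at chr4:2261478-2261506 on the plus strand. The E-box CACGTG, in capitals, lay among others in the overlapping peak pair of MXD3, at chr5:177312265-177312292, shown on the plus strand. Coordinates are those of hg38.
MXI1 heptamer: cgcgcgtggttTGTTTACctctccccgcg
MXD4 heptamer: acgcgtggcacTGTTTACgcgagcggccc
MXD3 E-box: cccagccgctgCACGTGggtgccgcggg

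The shared stretches of MXD4, MXD1, MNT and MXD3 are given at more length because they lie outside untranslated regions in GENCODE release 44, in the direction of each gene. The MXD4 stretch, chr4:2261367-2261577 on the minus strand, is in intron 2 and shows the heptamer as its reverse complement, in capitals. In the other stretches the capitals mark CCAAT or its reverse complement ATTGG, a common promoter element. The MXD1 stretch is chr2:69914697-69914907 on the plus strand, the MNT stretch is chr17:2401615-2401825 on the minus strand, and the MXD3 stretch, chr5:177312292-177312436 on the minus strand, is the part of its peak upstream of the deposited start site.
MXD4 intron: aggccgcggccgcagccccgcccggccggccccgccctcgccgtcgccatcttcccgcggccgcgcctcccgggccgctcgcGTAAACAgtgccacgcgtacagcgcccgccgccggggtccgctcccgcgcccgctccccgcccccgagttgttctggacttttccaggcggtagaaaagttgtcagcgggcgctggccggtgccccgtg
MXD1 promoter: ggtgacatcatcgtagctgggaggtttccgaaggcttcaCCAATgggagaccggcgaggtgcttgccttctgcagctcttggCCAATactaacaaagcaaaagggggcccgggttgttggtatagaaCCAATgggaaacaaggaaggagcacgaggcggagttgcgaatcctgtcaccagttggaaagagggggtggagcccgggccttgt
MNT upstream promoter: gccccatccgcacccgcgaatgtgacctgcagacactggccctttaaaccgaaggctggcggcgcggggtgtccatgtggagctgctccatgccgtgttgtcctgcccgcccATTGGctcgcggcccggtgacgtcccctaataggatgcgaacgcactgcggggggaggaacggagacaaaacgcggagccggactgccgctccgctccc
MXD3 promoter: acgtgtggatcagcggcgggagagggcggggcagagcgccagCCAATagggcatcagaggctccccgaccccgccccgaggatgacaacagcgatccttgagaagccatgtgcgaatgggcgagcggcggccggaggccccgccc

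CCAAT was looked for only after these sequences had been read. The MXD1 stretch held it 3 times, and 3 or more copies within 100 bp of the centre occurred in 2.28% of the replicate 1 peaks and 2.2% of the replicate 2 peaks that lay within 1000 bp of a start site and overlapped between replicates. The MNT and MXD3 stretches held it 1 time each, and at least 1 copy was present in 27.0% and 27.7% of the same peaks.

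FOXK2 peaks were assigned to 7 of the 10 genes in replicate 1, where 31.3% of protein-coding RefSeq genes had a peak, and to 8 of the 10 in replicate 2, where 51.7% had a peak. MYC, MAX, MXI1, MXD1, MXD3, MXD4 and MNT had a peak in both replicates, against 28.6% of protein-coding genes. In each of these 7 genes at least 1 pair of peaks overlapped by 1 bp or more between replicates, against 25.5% of protein-coding genes, and for MAX, MXI1, MXD1, MXD3 and MNT an overlapping pair was annotated as promoter in both lists, against 9.03%. MLX had a peak only in replicate 2, which made 8 of 10 genes with a peak in either list, against 54.4% of protein-coding genes, and MYCL and MYCN had none in either list. These shares are descriptions, because the genes were chosen with earlier results of these data known.

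Peaks of the network genes lay mostly in the upper part of each list. HOMER's peak score is scaled to its library, so each score was turned into a percentile, the share of peaks in the same list with an equal or lower score. The 9 peaks of replicate 1 had a median percentile of 89.9, and the 16 peaks of replicate 2 had a median of 86.7, against 50.7 in each whole list. The top 10% of scores, which with ties was 10.1% of each list, held 4 of the 9 and 7 of the 16. Of the peaks within 1000 bp of a start site, which make up 26.6% of the replicate 1 list and 22% of the replicate 2 list, the medians were 58.6 and 63.6. MYC, MAX, MXD1 and MXD3 had an overlapping pair in the top 10% of both lists, as did 4.44% of protein-coding genes.

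**Figure D1:**
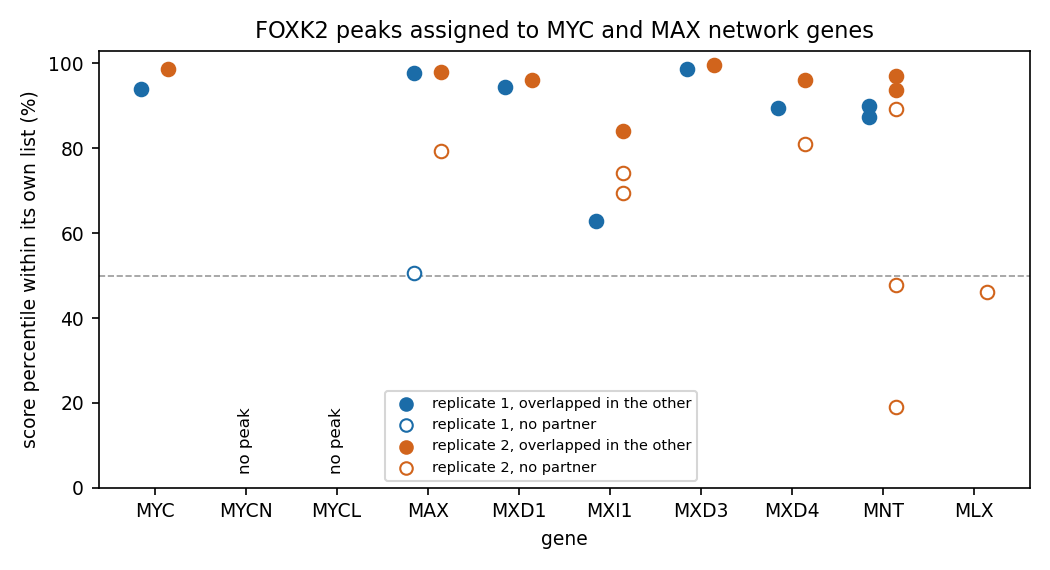
Score percentile (vertical axis, percent of the own list) of every FOXK2 peak assigned to each network gene (horizontal axis), with replicate 1 in blue and replicate 2 in orange. Filled points overlap a peak of the other replicate and open points do not, and the dashed line marks 50%. All filled points of genes other than MXI1 lie at 87.3 or above, while MLX has a single open point at 46.1 and MYCN and MYCL have none.

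Among the factors that pair with MAX to activate genes, MYC alone had a peak. The MYC peak scored 14.0 in replicate 1 (rank 742, percentile 94.1) and 35.7 in replicate 2 (rank 351, percentile 98.7). Within a list every low score was a whole number of equal steps, and with 1 step taken as 1 sequence tag the peaks held 74 tags (exact Poisson 95% interval 58.1 to 92.9) and 240 tags (211 to 272). These intervals cover counting error only. The peak spanned 127735748 to 127735958 of chromosome 8 (hg38) in replicate 1 and 127735747 to 127736003 in replicate 2, and the centres were 22 bp apart. The deposited annotation placed it in the 5′ UTR, in exon 1 of NM_001354870, 419 and 441 bp downstream of the nearest start. In GENCODE the centres were in a UTR exon of another MYC transcript, and lay 378 and 356 bp upstream of the canonical start. It held 1 copy of TGTTTAC in each replicate.

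Scores on chromosome 8 were raised as a whole, with a median percentile of 76.3 over 553 peaks in replicate 1 and 74.9 over 1126 peaks in replicate 2, against 50.7 and 49.3 over the chromosomes of the other network genes. Among the peaks of its own chromosome the MYC peak ranked 70 in replicate 1 and 33 in replicate 2. The part of the chromosome-wide level in the rank of the MYC peak was not tested.

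MAX, the shared partner of the network, had a strong promoter peak in both replicates. It scored 19.8 in replicate 1 (rank 289, percentile 97.7, 105 tags) and 30.6 in replicate 2 (rank 513, percentile 98.1, 206 tags), 63 and 14 bp downstream of the deposited start. The peaks shared 185 bp and their centres were 49 bp apart. No forkhead heptamer lay within 100 bp of either centre. MAX also had 1 intergenic peak in each replicate, and these were different sites. The replicate 1 peak lay 48784 bp upstream (percentile 50.7) with 1 copy of the AP-1 site TGACTCA, and the replicate 2 peak lay 28873 bp upstream (percentile 79.4) with a focus ratio of 0.899, the fraction of tags on the expected side of the centre.

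The network genes MXD1, MXI1, MXD3, MXD4 and MNT, which encode MAX-binding repressors, all had a reproduced peak within 1000 bp of a start site. MXD3 was the highest of the network, with scores of 23.8 (rank 176 of 12471, percentile 98.6, 126 tags) and 59.8 (rank 88 of 27281, percentile 99.7, 402 tags). Its centres were 1 bp apart, at 40 and 41 bp upstream of the deposited start of NM_031300, and held CACGTG but no forkhead heptamer. In GENCODE the canonical MXD3 transcript starts further downstream, 433 bp from the replicate 1 centre.

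MXD1, which is induced when many cell types differentiate, had 1 promoter peak in each list. It scored 14.3 in replicate 1 (percentile 94.5, 76 tags) and 23.2 in replicate 2 (percentile 96.2, 156 tags), at 239 and 236 bp upstream of the deposited start. It held neither TGTTTAC nor any of its near variants, which were searched as TGTTTGC with G at the sixth base, TGTTTAT with T at the last base and TGTTTGT with both changes.

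The strongest MXD4 peak was in intron 2 of NM_006454, 540 and 529 bp downstream of the deposited start. It scored 11.3 in replicate 1 (percentile 89.5, 60 tags) and 23.1 in replicate 2 (percentile 96.1, 155 tags), and it held TGTTTAC in both. Replicate 2 had a further MXD4 promoter peak at 354 bp upstream (score 12.2, percentile 81.0), which held CACGTG and had no partner in replicate 1.

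MXI1 was the lowest of the genes with a reproduced peak, and the peak lay at the start of a shorter transcript, NM_005962, within intron 1 of the canonical transcript. It scored 6.79 in replicate 1 (percentile 62.9, 36 tags) and 13.2 in replicate 2 (percentile 84.0, 89 tags), with TGTTTAC in both. Replicate 2 alone had peaks near the start of another MXI1 transcript, NM_001008541. The peak 150 bp upstream of that start (score 9.67, percentile 69.4) also held TGTTTAC, and the peak 1067 bp downstream (score 10.6, percentile 74.3) did not.

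MNT, the most broadly expressed of the MAX-binding repressors, had 2 peaks in replicate 1, as did MAX, and 5 in replicate 2, the most of the network in that list. The peak nearest to the start, 97 and 109 bp upstream, scored 11.5 (percentile 89.9, 61 tags) and 25.9 (percentile 97.1, 174 tags). The next, 756 and 762 bp upstream, scored 10.6 (percentile 87.3, 56 tags) and 19.3 (percentile 93.8, 130 tags). The pairs lay 12 and 6 bp apart by their centres, so the promoter carried the same pair of sites in both replicates. The peaks found only in replicate 2 were an intron 1 peak (score 15.8, percentile 89.3), an intron 4 peak (score 6.99, percentile 47.7) and a peak 6091 bp upstream (score 4.76, percentile 19.1). No MNT peak held TGTTTAC, and CACGTG was in the intron 1 peak.

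MLX had a single peak, in intron 1 and 554 bp downstream of the deposited start, in replicate 2 (score 6.84, rank 14705, percentile 46.1, 46 tags). The nearest neighbouring peak in that list, 5021 bp upstream of the canonical MLX start (percentile 77.6), was assigned to COASY. MYCL and MYCN, the paralogs of MYC first found amplified in lung cancer and in neuroblastoma, had no peak. Within 100000 bp of the MYCL start, replicate 1 had 0 peaks and replicate 2 had 3, and around MYCN replicate 1 had 2 peaks and replicate 2 had 0. All of these were assigned to other genes, none overlapped between replicates, and their percentiles ran from 5.38 to 55.1.

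**Figure D2:**
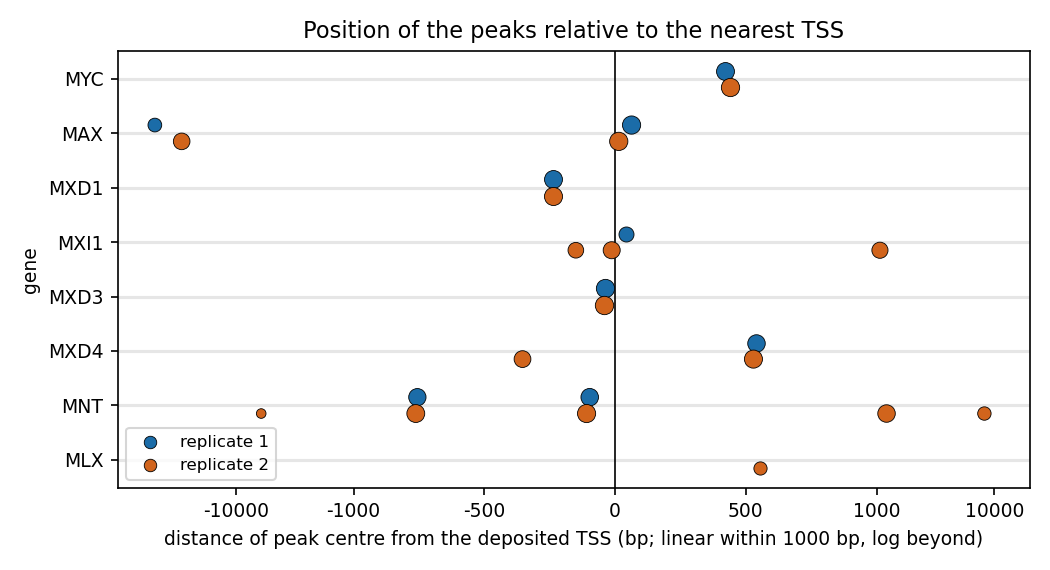
Distance of each peak centre from the deposited start site (horizontal axis, bp, linear within 1000 bp and logarithmic beyond) for the network genes with a peak, with replicate 1 in blue, replicate 2 in orange and larger points for higher percentiles. Overlapping peaks of both replicates sit within 22 bp of each other for MYC, MXD1, MXD3, MXD4 and MNT, other orange points of MXD4 and MNT have no blue partner, and the distal MAX points at 48784 and 28873 bp upstream do not coincide.

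The position of these peaks differed from that of the lists as a whole. In replicate 1, 8 of 9 peaks (88.9%, Wilson 95% interval 56.5% to 98.0%) had a centre within 1000 bp of the deposited start, and in replicate 2, 11 of 16 did (68.8%, 44.4% to 85.8%). The deposited annotation called 6 of 9 and 8 of 16 promoter peaks, against 21.7% and 18% of the lists. The base composition moved with position: the median GC content within 100 bp of the centre was 67.7% and 68.7% over the network peaks, 63.2% over all peaks within 1000 bp of a start in each list, and 47.3% and 46.3% over the whole lists. Its part in the ranks was not tested.

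Of the replicate 1 peaks, 8 of 9 overlapped a replicate 2 peak (88.9%, 56.5% to 98.0%, against 74.9% of that list), and of the replicate 2 peaks 8 of 16 overlapped a replicate 1 peak (50%, 28% to 72%, against 34.2%). The overlapped replicate 2 peaks had a median percentile of 96.6 and a lowest value of 84.0. The 8 without a partner had a median of 71.8 and a highest value of 89.3, so the groups overlapped in part. In the whole replicate 2 list the overlapped peaks had a median of 78.2, against 50.7 for all peaks.

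In all 8 overlapping pairs of the network genes the score was higher in replicate 2. Over all 9343 pairs the replicate 2 score was a median of 1.73 times the replicate 1 score, with a central range (10th to 90th percentile) of 1.23 to 2.32. The ratio was 2.55 for MYC and 2.51 for MXD3, at the percentiles of 95.9 and 95.2 among all pairs. It was 2.25 for the MNT peak nearest to the start, 2.04 for MXD4, 1.94 for MXI1, 1.82 for the upstream MNT peak, 1.62 for MXD1 and 1.55 for MAX. The ratios thus ran on either side of the median of all pairs.

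**Figure D3:**
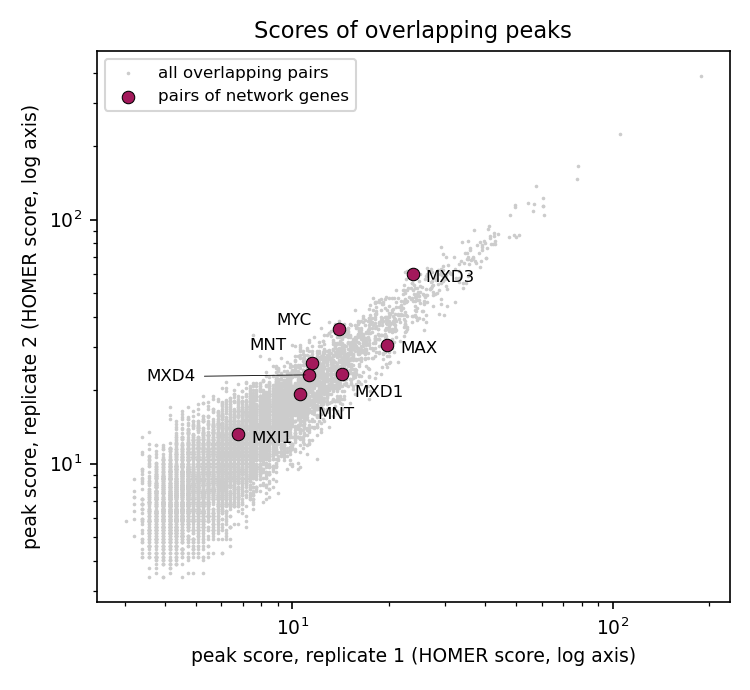
Peak score in replicate 1 (horizontal, log axis) against replicate 2 (vertical, log axis) for all 9343 overlapping pairs in grey and the 8 pairs of network genes in dark red. MYC and MXD3 lie at the upper edge of the cloud, with ratios of 2.55 and 2.51, and MAX and MXD1 lie below its middle, with 1.55 and 1.62.

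By the mean percentile of the best peak, the order was MXD3 (99.1), MAX (97.9), MYC (96.4), MXD1 (95.3), MNT (93.5), MXD4 (92.8) and MXI1 (73.5). Only MXD3 above MAX and MXD4 above MXI1 were neighbours whose ranges over the replicates did not overlap. The range of MAX also lay above those of MXD1, MNT and MXD4. The range of MYC overlapped those of MXD3, MAX, MXD1, MNT and MXD4, and the ranges of MXD1, MNT and MXD4 overlapped each other, so in the full lists these genes could not be placed in order. These overlaps depended on the length of the lists. With replicate 2 cut to the length of replicate 1, the range of MYC (94.1 to 97.2) lay below that of MXD3 (98.6 to 99.3) and above those of MNT (89.9 to 93.6) and MXD4 (89.5 to 91.4), and that of MXD1 (91.6 to 94.5) lay above that of MXD4. Among 2856 other genes that also had 1 peak in each list, the best percentiles nearest to those of MXD3 included those of HERPUD1 (98.61 and 99.56) and SPINT1-AS1 (98.44 and 99.63), a likeness over 2 replicates only.

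Forkhead heptamers were present in a minority of the network peaks. TGTTTAC, on either strand within 100 bp of the centre, was in 3 of 9 replicate 1 peaks (33.3%, 12.1% to 64.6%, against 30.5% of that list) and in 4 of 16 replicate 2 peaks (25%, 10.2% to 49.5%, against 28.2%), and the genes were MYC, MXI1 and MXD4 in each. With the near variants added, the counts were 3 and 5, against 47.6% and 45.9% of the lists and 25.4% and 22% of the peaks within 1000 bp of a start, and the added peak was the distal MAX peak of replicate 2. Over all peaks within 1000 bp of a start, TGTTTAC was in 15.4% and 12.6%. The E-box CACGTG was in 2 of 9 and 3 of 16 network peaks, against 6.02% and 5.21% of the lists and 10.4% and 9.67% of the peaks within 1000 bp of a start. TGACTCA was in 1 of 9 and 0 of 16, against 16.4% and 16.6% of the lists and 3.83% and 3.53% of the peaks within 1000 bp of a start. With counts this small, the intervals include the shares of both lists for TGTTTAC. For CACGTG the intervals (6.32% to 54.7% and 6.59% to 43%) lay just above the shares of the lists. They included the shares of the peaks within 1000 bp of a start.

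RefSeq promoters, from 250 bases before to 50 after a start (build GRCh38.p14), matched 9 of the 10 genes with 12 sequences. TGTTTAC was in 2 of these, both of MXI1, and in 3.42% of all 35116 promoters. CACGTG was in those of MLX, MNT and MXD4, and in 7.26% of all. A match is a description of the letters, and no match says only that they are not in the window.

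The rule of nearest start left most peaks around MYC under other gene names. Within 310 kb of the canonical MYC start, a limit set after the peaks had been seen, there were 10 peaks in replicate 1 and 16 in replicate 2, and 1 in each list was assigned to MYC. All 9 others of replicate 1 had a partner in replicate 2, with percentiles from 74.9 to 98.1 (median 87.3), and 9 of the 15 others of replicate 2 had one, with percentiles from 76.9 to 98.7 over all 15 (median 92.5). Over the whole lists, 74.9% and 34.2% of peaks had a partner. TGTTTAC was in 8 of the 10 and 8 of the 16, against 30.5% and 28.2% of all peaks in the lists. The strongest neighbour, 117916 bp downstream in replicate 1 and inside PVT1, scored 20.9 in replicate 1 (percentile 98.1) and 35.8 in replicate 2 (percentile 98.7), next to 14.0 and 35.7 for the MYC peak itself.

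PVT1, a long noncoding RNA gene that neighbours MYC and is often amplified with it, runs on past the 310 kb limit. Its peaks inside that limit were already counted above. Its body, 127794526 to 128187101 of chromosome 8, contained 10 peaks in replicate 1 and 17 in replicate 2, of which 10 overlapped in each list. None was assigned to PVT1, since starts of MIR1204, MIR1207, MIR1208 and TMEM75 were nearer. Their median percentiles were 91.7 and 94.8, TGTTTAC was in 6 peaks of each list, against 30.5% and 28.2% of the lists, and TGACTCA was in 3 and 8, against 16.4% and 16.6%. Upstream of MYC, peaks assigned to CASC11 (percentiles 74.9 and 88.1) and CASC8 (87.3 and 96.9) were found in both replicates, each with TGTTTAC. As for MYC, these percentiles stand beside the chromosome-wide medians of 76.3 and 74.9.

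**Figure D4:**
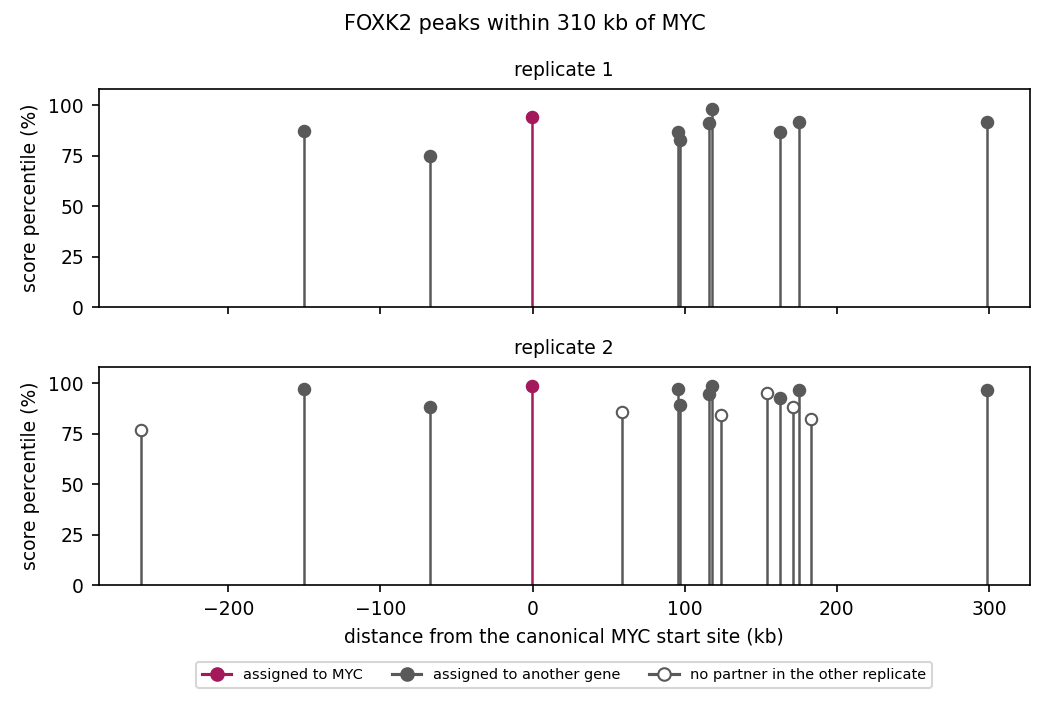
Score percentile (vertical axis, percent of the own list) of every FOXK2 peak within 310 kb of the canonical MYC start, by distance from it (horizontal axis, kb), for replicate 1 above and replicate 2 below. The peak assigned to MYC is dark red, those assigned to other genes are grey, and open points have no partner in the other replicate. All 10 replicate 1 peaks recur in replicate 2, which has 6 more.

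Around all 10 genes, within 100000 bp of the canonical starts, replicate 1 had 20 peaks and replicate 2 had 48, of which 9 and 16 carried the gene's own name. In each list 16 of these peaks overlapped the other replicate, against 74.9% of all replicate 1 peaks and 34.2% of all replicate 2 peaks, 8 of them under another name: 3 around MYC, 3 around MLX, 1 at SNRNP27 near MXD1 and 1 at SLC34A1 near MXD3.

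Other genes of the pathway were read from lists chosen with earlier results known. Of 17 genes for partners, paralogs and cofactors of the network proteins, 3 had a peak in replicate 1 (17.6%, against 31.3% of protein-coding genes), 12 had a peak in replicate 2 (70.6%, against 51.7%) and 2 had an overlapping pair (11.8%, against 25.5% of protein-coding genes), both at promoters (against 9.03%). HDAC1, a histone deacetylase of the SIN3 complex, had percentiles of 69.0 and 71.3, and RUVBL2, an ATPase of chromatin complexes that MYC recruits, had 53.7 and 85.8. MGA, MLXIPL, TRRAP, KAT2A and NCOR1 had no peak in either list, while 12 of the 17 had one in at least 1 list (70.6%, against 54.4% of protein-coding genes). None of the 17 had a peak in the top 10% of a list, while 4.55% and 9.02% of protein-coding genes did.

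Of 14 genes that set the stability of MYC protein, 5 had an overlapping pair (35.7%, against 25.5% of protein-coding genes). PIM1, a kinase that phosphorylates and stabilizes MYC, had 3 such pairs. The strongest, in an intron 2273 and 2254 bp from the start, scored 35.3 (percentile 99.6) and 69.9 (percentile 99.8) and held TGTTTAC, and it was above every peak of the network genes. PPP2R5A, a subunit of the phosphatase PP2A, followed (76.3 and 92.6), then FBXL14, a ubiquitin ligase subunit (74.9 and 68.4), BIN1, a MYC-interacting adaptor (47.5 and 71.3), and HUWE1, a ubiquitin ligase (19.4 and 19.1). The ubiquitin ligase genes FBXW7 and SKP2 had no peak in either list, while 7 of the 14 genes had one in at least 1 list (50%, against 54.4% of protein-coding genes). A pair annotated as promoter in both lists was found for 1 of the 14 (7.14%, against 9.03% of protein-coding genes).

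Of 35 genes that MYC is known to regulate, 11 had a peak in both replicates (31.4%, against 28.6% of protein-coding genes) and 9 an overlapping pair, 25.7% of the list against 25.5% of protein-coding genes. The highest were NDRG1, which MYC represses (97.8 and 98.8, an intergenic peak on chromosome 8), the ribosome production genes PES1 (97.1 and 98.3) and NOP56 (95.5 and 98.1), the glycolytic enzyme gene HK2 (96.0 and 95.4) and the nucleolar gene NPM1 (86.5 and 95.9). An overlapping pair in the top 10% of both lists was found for 4 of the 35 genes (11.4%, against 4.44% of protein-coding genes). Classical targets such as ODC1, CAD, TERT, NME1 and SHMT2 had no peak in either list. Of all 35 genes, 23 had a peak in at least 1 list (65.7%, against 54.4% of protein-coding genes).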

How the data were processed

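FOXK2 ChIP-seq was carried out in 2 biological replicates of OVCAR5 cells. According to the methods and the submitters' processing notes, the authors mapped reads to hg38 with Bowtie2 2.2.6 and called peaks with HOMER 4.10. The deposited score of each peak is HOMER's, scaled to the library, and per the file headers the lists also give a focus ratio, which is a fraction, and the distance to the nearest start in bp. Replicates were not pooled.

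Members and lists were chosen with earlier results of these data known. Named genes were all 10 members, up to 5 genes of each other list with the best mean percentile of an overlapping pair, and the 3 genes most like the highest member. Some items under this rule are not reported here. Genes outside this rule (those without a pair or a peak, and neighbours of a member) were named after their values were seen. Where a list had fewer than 5 pairs, all are named. Other genes were matched by gene ID to RefSeq.

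Peaks shared between replicates overlapped by at least 1 bp, both ends counted. Scores under 10 were all within 0.01 of a whole multiple of a step of 0.1886 in replicate 1 and 0.1487 in replicate 2, so the weakest peaks held 16 and 21 tags if a step is 1 tag. Motifs were searched on both strands of hg38 within 100 bp of peak centres, and the scripts for overlaps and motif counts were tested on simulated data. No significance test was run. Alternatives were lists of equal length, the higher-scoring part of each list, stricter overlap, limits on distance, promoter peaks, other motif windows and leaving out each replicate. The tools were samtools 1.23.1, pysam 0.24.0, pandas 2.3.3, scipy 1.17.1, matplotlib 3.10.9, numpy 2.4.6 and Python 3.11.15.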

Additional observations from a re-analysis of the deposited data

How the results depend on the processing

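Each summary of the network genes was recomputed under the alternatives that bear on it, and 28 of 29 such values stayed within 1.5 times the count or, for percentiles, within the SD between replicates. The count of 7 genes with a peak in both replicates was also 7 in lists of equal length, in the higher-scoring part of each list and within 100000 or 10000 bp of the start. It was 5 with promoter peaks only and 8 with every peak within 100000 bp of a gene's start. With 1 replicate left out, only a peak in the remaining list is needed, a looser count. It was 8 without replicate 1 and 7 without replicate 2. Under the stricter overlap, 7 genes had an overlapping pair. The count of 8 overlapped peaks in each list was 8 with lists of equal length, with the higher-scoring part and with stricter overlap. TGTTTAC was in a peak of 3 genes, and of 3 genes without either replicate. With only the higher-scoring part of replicate 1, the median percentile of its network peaks was 83.9, since percentiles are then taken within a shorter list. The mean of both medians was 88.3, and leaving out 1 replicate gave 86.7 to 89.9. Of 28 percentiles of single genes, 13 moved, all 13 to a lower value, and 0 reversed. The alternatives for these, lists of equal length and the higher-scoring part, drop only the lowest scores. The percentile of a kept peak could therefore not rise, and this direction carries no information about the genes. Lists of equal length left replicate 1 uncut, so its percentiles could not move under that alternative. For MXI1 in replicate 1 the percentile was 25.9 in place of 62.9 with the higher-scoring part of the list. With 2 replicates the spread is itself poorly known, and no signal over input was computed. No paired analysis was possible because values were given here for the FOXK2 ChIP libraries only, and the input library of each replicate was not analysed.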

Other observations

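A list of 21 genes around MYC on the long arm of chromosome 8 was read in the same way, and it includes genes named above. Many of these are noncoding RNA or microRNA genes, so the shares of protein-coding genes beside the counts come from an unlike set. Of these, 11 had an overlapping pair (52.4%, against 25.5% of protein-coding genes) and 6 had one in the top 10% of both lists (28.6%, against 4.44%), on a chromosome with a median percentile of 76.3 in replicate 1 and 74.9 in replicate 2. The highest pairs were assigned to CCAT1, a noncoding RNA gene upstream of MYC (percentiles 97.8 and 98.9), MIR1204 (98.1 and 98.7, the neighbour of MYC given above), MIR1208 (97.2 and 99.1), LRATD2 (98.0 and 98.3) and LINC02912, the current symbol of TMEM75 (91.9 and 96.6). POU5F1B, PCAT2, PRNCR1, PVT1, LINC00977, MIR1205 and MIR1206 had no peak assigned in either list. Of the 21 genes, 14 had a peak in at least 1 list (66.7%, against 54.4% of protein-coding genes).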
